A study of Mus musculus with 16 samples.

Results

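The genes described serve the movement of glucose and lactate across cell membranes in the mouse cortex. They are the glucose transporters Slc2a1 (GLUT1), Slc2a3 (GLUT3) and Slc2a4 (GLUT4) and the monocarboxylate transporters Slc16a1 (MCT1), Slc16a3 (MCT4) and Slc16a7 (MCT2). The last is Bsg (basigin), the accessory protein of MCT1 and MCT4. These genes were chosen by name, and all 7 were found among the 24060 genes of every library. The questions were which of these genes were at a higher level in RNA bound to astrocyte ribosomes than in whole cortex, and whether a swim changed their level in either fraction.

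RNA came from the somatosensory cortex of Aldh1l1CreERT2-RiboTag mice on the C57BL/6J strain background, aged 3 months. In these mice a tamoxifen-inducible Cre, driven by the astrocyte gene Aldh1l1, switches on a copy of the ribosomal protein Rpl22 that carries an HA tag, so that astrocyte ribosomes and their mRNA can be pulled down. All groups carried both alleles and received tamoxifen, which the labels place at 2 months and 1 month before the experiment, while the methods place it 2 weeks before. There were 16 libraries of 4 kinds, with n = 4 each. Naïve IP and stress IP are the immunoprecipitate, and naïve INPUT and stress INPUT are the cleared lysate of all cell types. Stressed mice swam for 20 min and rested for 90 min in the home cage, and naïve mice stayed in theirs. The mice were homogenized one by one, males and females were used, and the samples carry neither the sex of the mouse nor a mark that ties an IP library to the INPUT library of the same animal. Replicates are called by their library numbers, 1 to 16.

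As background, glucose enters the brain down its gradient through transporters of the Slc2 family. GLUT1 is the transporter of the blood-brain barrier endothelium and is also made by astrocytes, GLUT3 is the high-affinity transporter of neurons, and GLUT4 is the form that insulin brings to the cell surface in muscle and fat. Lactate and pyruvate cross membranes together with a proton through monocarboxylate transporters: MCT1 is made by endothelium, astrocytes and oligodendrocytes, MCT2 is the high-affinity form of neurons, and MCT4 is the low-affinity form of cells that export lactate. Basigin brings MCT1 and MCT4 to the plasma membrane, while MCT2 pairs mainly with embigin. The proposed shuttle of lactate from astrocytes to neurons needs an exporting form on one cell and an importing form on the other.

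The libraries held 16392876 to 25814364 reads on genes (median 21167241), so that 3 reads corresponded to at most 0.183 CPM, the number of reads of a gene scaled to a library total of 1000000. Known cell type markers separated the fractions. All 10 astrocyte markers were higher in naïve IP than in naïve INPUT, by log2 ratios of 2.87 to 4.50. All 9 neuronal, 11 endothelial, 8 oligodendrocyte, 3 oligodendrocyte precursor and 8 microglial markers were lower, and none of these was at 0 in any library. Of 7 mural cell markers, 2 (Pdgfrb and Notch3) were higher in IP, 4 were lower, and Acta2 was below the level needed for the test. The summed level of 4 choroid plexus markers was 126 CPM in naïve IP replicate 2 and 2.81 to 17.5 CPM in the other 15 libraries, and none of the 7 genes was highest or lowest there among the naïve IP libraries except Slc16a7, which was highest, and Slc2a3, which was lowest. In each group 1 library stood apart over all genes by its chi-square per gene against the others of the group: naïve IP replicate 11 (17.0 to 21.0, against 6.27 to 9.35 among the rest), stress IP replicate 15 (23.7 to 31.3, against 10.4 to 12.6), naïve INPUT replicate 14 (12.9 to 15.3, against 4.37 to 6.91) and stress INPUT replicate 9 (17.0 to 17.9, against 5.43 to 12.3).

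In the GENCODE annotation of the mouse assembly GRCm38, the build the authors aligned to under the name mm10, all 7 are protein-coding. Slc2a1 lies on chromosome 4 at 119108711-119137983 on the plus strand, Slc16a1 on chromosome 3 at 104638668-104658462 on the plus strand and Slc2a3 on chromosome 6 at 122727809-122801640 on the minus strand. Chromosome 11 holds both Slc2a4 at 69942539-69948188 on the minus strand and Slc16a3 at 120948480-120960868 on the plus strand. Chromosome 10 holds both Slc16a7 at 125219270-125389465 on the minus strand and Bsg at 79704491-79711969 on the plus strand. Exons of Slc2a1 overlap 105 bases of Gm12868 and those of Slc16a7 overlap 179 bases of Gm47862. Neither partner has an entry in the deposited tables, and whether the counting used strand is not given in the sources used here.

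For 3 of the 7, Slc16a1, Slc2a1 and Slc16a3, a RefSeq promoter (GRCm38.p6) was at hand. They are shown because all 3 hold, within 250 bases before the RefSeq start, the letters ACGTG, the core that hypoxia-inducible factors recognise, and Slc16a1 holds them inside CACGTG, an E-box that carbohydrate-response, Myc and clock factors recognise. Both strands were searched, and a CACGTG also counts as a match to ACGTG. Each piece is 30 bases long, is written 5′ to 3′ on the plus strand, which is the strand of these genes, and carries the match in capitals.
Slc16a1, CACGTG beginning 200 bases before the start, chr3:104638452-104638481: gcggcgccgggtCACGTGgcgggaaggggg
Slc2a1, ACGTG beginning 36 bases before the start, chr4:119108697-119108726: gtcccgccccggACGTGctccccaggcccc
Slc16a3, ACGTG beginning 27 bases before the start, chr11:120949028-120949057: caggcagcggtgACGTGcgcgggggacgtg
Slc16a3, ACGTG beginning 14 bases before the start, chr11:120949037-120949066: gtgacgtgcgcgggggACGTGccgcgcgac
Of 32851 mouse promoters of the same length, 16.6% hold ACGTG and 6.02% hold CACGTG. A match describes the letters and not the binding of a factor. The piece of Slc16a1 lies before the annotated gene, that of Slc2a1 spans the gene's first annotated base, and both of Slc16a3, which overlap each other, lie in its first intron as annotated from the gene's outermost start, around the first exon of its shorter forms.

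Levels of different genes were compared per kilobase of exon, in CPM per kb. In naïve IP the order was Bsg (105 ± 3.59, SD), Slc2a1 (32.2 ± 3.58), Slc16a1 (12.8 ± 0.725), Slc2a3 (1.47 ± 0.245), Slc2a4 (0.974 ± 0.383), Slc16a7 (0.223 ± 0.0583) and Slc16a3 (0.0299 ± 0.0121). Only the ranges of Slc2a3 and Slc2a4 overlapped between neighbours, and in stress IP, where the order was the same, no neighbours overlapped. Bsg stood at percentile 98.2 of the 11967 genes averaging above 1 CPM in naïve IP, Slc2a1 at 92.4 and Slc16a1 at 78.7. In naïve INPUT the order was Bsg (133 ± 9.38), Slc2a3 (16.3 ± 1.46), Slc2a1 (13.4 ± 1.34), Slc16a1 (6.71 ± 0.468), Slc16a7 (2.39 ± 0.229), Slc16a3 (0.320 ± 0.0810) and Slc2a4 (0.160 ± 0.105). Here Slc2a3 and Slc2a1 overlapped, as did Slc16a3 and Slc2a4. In stress INPUT Slc2a1 (17.7 ± 2.81) stood beside Slc2a3 (17.4 ± 0.553) with overlapping ranges, and the other positions were as in naïve INPUT.

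**Figure D1:**
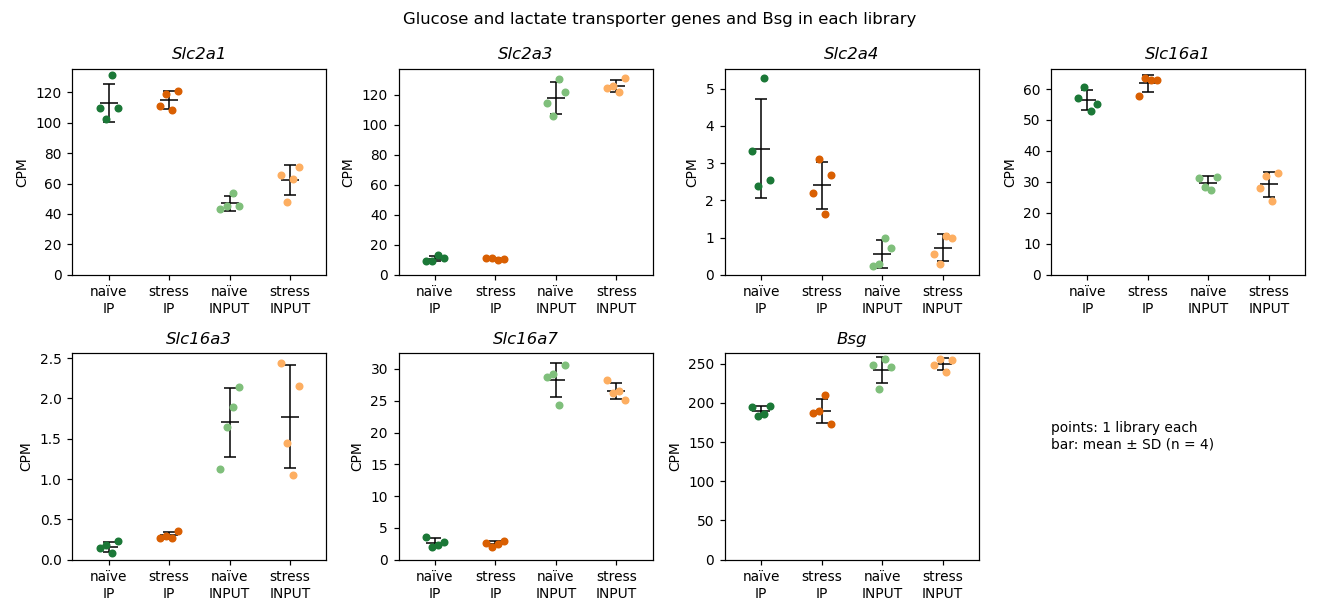
Each panel plots 1 gene in CPM (vertical axis, from 0) in the 4 groups of libraries, where a point is 1 library and the bar is the mean ± SD (n = 4). Slc2a1, Slc2a4 and Slc16a1 lay higher in IP than in INPUT, Slc2a3, Slc16a3 and Slc16a7 lay far lower, and Bsg lay somewhat lower.

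IP and INPUT were compared first. In naïve mice 3 genes were higher in IP, Slc2a1 by 2.41-fold, Slc16a1 by 1.90-fold and Slc2a4 by 5.71-fold (a value that moves with the pseudocount and the scaling), and 3 were lower, Slc2a3, Slc16a7 and Bsg. The test was limma with Benjamini-Hochberg adjustment over all genes that averaged above 1 CPM in the 8 libraries of the comparison, on the scale of log2(CPM + 0.1), which understates the change of low genes. Of the 13339 genes tested, 23.7% were higher in IP and 64% were lower at an adjusted p under 0.05, against 3 and 3 of the 6 members tested. Slc16a3 fell below the level needed for that test. In stressed mice 3 of 7 tested were higher and 4 lower, against 23.6% and 62.5% of all genes. Slc16a3, counted there as lower, passed the filter only through its INPUT level (1.77 CPM, against 0.300 CPM in IP). Slc2a4 passed it in naïve and stressed mice only through its IP level (3.39 and 2.41 CPM, against 0.557 and 0.723 CPM in INPUT). For these genes, entry into the fit favoured the direction that was called. The values of IP and INPUT did not overlap for any of the 7 in either condition, as for 83.7% of all genes in naïve and 81.4% in stressed mice. An exact permutation test, two-sided, with 70 labelings of 4 against 4 libraries gave p = 0.029 for each, the smallest it can give. Per the methods, each lysate was divided into an INPUT and an IP part, so both fractions came from the same mice. The labels do not give these pairs, and both tests treated the libraries as independent. That permutation p is therefore not exact for paired libraries. How far RNA of other cells carried into IP shaped these ratios was not tested. Where groups of mice are compared in bulk RNA, fewer cells of a type and less RNA per cell cannot be told apart.

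These log2 ratios are relative to a library total, and the median of all genes was −0.64 in naïve and −0.63 in stressed mice. Relative to that median, Slc2a1, Slc2a4 and Slc16a1 lay above it (by 1.90, 3.15 and 1.56 in naïve mice), Slc2a3 and Slc16a7 lay below it (by −2.83 and −2.77), and Bsg lay above it by 0.29. In stressed mice the values relative to the median were 1.53 for Slc2a1, 2.33 for Slc2a4, 1.72 for Slc16a1, −2.93 for Slc2a3, −2.73 for Slc16a7, −1.53 for Slc16a3 and 0.24 for Bsg. The sign of Bsg therefore depended on the scaling, and that of the other members did not.

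Slc2a1 was at 109, 102, 131 and 109 CPM in naïve IP (replicates 2, 8, 11 and 13), and at 43.4, 45.0, 53.9 and 45.3 CPM in naïve INPUT (replicates 3, 7, 14 and 16). Every IP library was above 100 CPM and every INPUT library below 54. The log2 ratio was 1.27 (SE 0.086, limma adjusted p = 7.34e-09). In stressed mice it was at 111, 119, 108 and 121 CPM in IP (replicates 4, 5, 6 and 15) and at 65.8, 48.1, 63.3 and 71.1 CPM in INPUT (replicates 1, 9, 10 and 12). Again no value overlapped, with a log2 ratio of 0.90 (SE 0.105, limma adjusted p = 3.84e-06). Both ratios were below that of each of the 10 astrocyte markers, the lowest of which was Gjb6 (connexin 30) at 2.87 in naïve and 2.97 in stressed mice.

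Since GLUT1 is also the transporter of brain endothelium, the endothelial markers were set beside it. All 11 were lower in IP, with a median log2 ratio of −2.96 and a range of −4.43 to −1.56 in naïve mice. Their summed level was 16.6 to 24.3 CPM in naïve IP and 14.4 to 17.1 CPM in stress IP, against 105 to 149 and 88.0 to 125 CPM in the INPUT groups. IP thus held 15.6% of the INPUT level of these markers in naïve and 14.4% in stressed mice, whereas it held 241% and 185% of the INPUT level of Slc2a1. Slc2a1 exceeded the endothelial sum 4.58- to 8.40-fold in the 8 IP libraries and was 0.291 to 0.574 of it in the 8 INPUT libraries.

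Slc16a1 was at 57.2, 60.6, 53.0 and 55.1 CPM in naïve IP and at 31.3, 28.5, 27.4 and 31.5 CPM in naïve INPUT. The lowest IP value was well above the highest INPUT value, and the log2 ratio was 0.93 (SE 0.071, limma adjusted p = 2.54e-08). In stressed mice its values were 57.7, 63.7, 63.1 and 62.8 CPM in IP and 28.1, 31.8, 23.9 and 33.0 CPM in INPUT. The log2 ratio there was 1.09 (SE 0.098, limma adjusted p = 3.04e-07). Like Slc2a1, it lay between the endothelial markers and the astrocyte markers in both conditions, and the 8 oligodendrocyte markers, another place where MCT1 is made, were lower in IP with a median of −3.62 in naïve mice.

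Slc2a4 was a low gene with a high ratio. In naïve IP it was at 3.33, 2.37, 5.29 and 2.56 CPM, or 53 to 135 reads a library, and in naïve INPUT at 0.226, 0.294, 0.997 and 0.712 CPM, or 4 to 20 reads. Replicate 11 stood above the other IP libraries, and no INPUT library reached the lowest of them. The log2 ratio was 2.51 (95% interval 1.68 to 3.35, limma adjusted p = 3.44e-05), so that its interval reached the astrocyte markers. Its size depended on the processing, at 1.48 with a pseudocount of 1, 3.07 with median-ratio size factors and 3.63 with quantile normalization. In stressed mice the values were 2.19, 3.11, 1.64 and 2.69 CPM in IP and 0.549, 0.299, 1.05 and 0.993 CPM in INPUT. The ratio was 1.69 (95% interval 0.93 to 2.46, limma adjusted p = 0.000624), with the lowest IP library still above the highest INPUT library, and under the same 3 settings it was 0.99, 2.26 and 3.07.

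Slc2a3, the neuronal GLUT3, showed the opposite distribution. It was at 9.10, 9.50, 13.0 and 11.1 CPM in naïve IP and at 114, 106, 130 and 122 CPM in naïve INPUT. The log2 ratio was −3.46 (SE 0.108, limma adjusted p = 1.59e-12). In stressed mice the values were 11.1, 10.8, 9.77 and 10.5 CPM in IP and 124, 126, 122 and 131 CPM in INPUT, with a ratio of −3.56 (SE 0.069, limma adjusted p = 3.76e-13). No library of one fraction came near the other.

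Slc16a7, which encodes MCT2, was at 3.52, 1.97, 2.23 and 2.83 CPM in naïve IP and at 28.8, 29.3, 24.4 and 30.7 CPM in naïve INPUT. The log2 ratio was −3.40 (SE 0.161, limma adjusted p = 1.37e-10). In stressed mice it was at 2.63, 1.97, 2.42 and 3.01 CPM in IP and at 28.2, 26.3, 26.6 and 25.2 CPM in INPUT, with a ratio of −3.37 (SE 0.135, limma adjusted p = 1.01e-10). The ratios of both neuronal transporters were close to each other in both conditions, with overlapping 95% intervals. IP held 9.04% of the naïve INPUT level of Slc2a3 and 9.33% of that of Slc16a7, beside 4.93% for the sum of the 9 neuronal markers, 9.43% for the oligodendrocyte, 9.83% for the microglial and 15.6% for the endothelial markers. What part of the remaining IP reads came from RNA of other cells was not tested.

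Slc16a3, the MCT4 gene, was the lowest of the 3 monocarboxylate transporters in every library. It had 3, 4, 2 and 6 reads in naïve IP (0.147, 0.179, 0.0783 and 0.232 CPM) and 20, 28, 38 and 42 reads in naïve INPUT (1.13, 1.65, 1.90 and 2.14 CPM). Pooled over libraries, INPUT exceeded IP 10.8-fold, with an exact 95% interval of 6.30 to 19.8 that covers counting error only. In stress IP it had 6, 6, 6 and 9 reads (0.268, 0.296, 0.274 and 0.362 CPM) and in stress INPUT 40, 34, 23 and 39 reads (2.44, 1.45, 1.05 and 2.15 CPM). There the pooled excess of INPUT was 5.65-fold (3.72 to 8.88), and the log2 ratio of IP to INPUT was −2.17 (SE 0.310, limma adjusted p = 2.69e-05), which under quantile normalization was −0.57 and lost its call. Slc16a3 entered that fit only through its INPUT level.

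Bsg was the highest of the 7 in both fractions. Its values were 195, 184, 185 and 196 CPM in naïve IP and 248, 217, 256 and 246 CPM in naïve INPUT, and 187, 190.0, 210 and 173 CPM in stress IP beside 249, 256, 239 and 255 CPM in stress INPUT. The ratio was −0.35 (SE 0.059, limma adjusted p = 8.54e-05) in naïve and −0.40 (SE 0.064, limma adjusted p = 8.05e-05) in stressed mice. IP thus held 78.6% and 76.1% of the INPUT level, a small difference beside those of the transporters. With size factors from the median ratio the same ratios were 0.29 and 0.23, both called higher in IP by limma, and with quantile normalization they were 0.07 and 0.02, neither called.

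**Figure D2:**
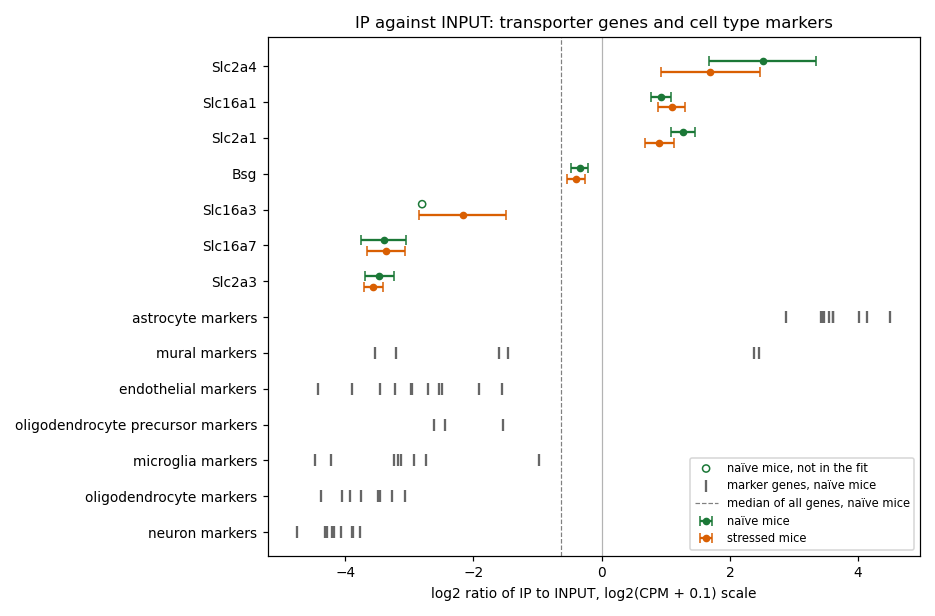
The horizontal axis is the log2 ratio of IP to INPUT on the log2(CPM + 0.1) scale. Each gene is shown with its 95% interval in naïve (green) and stressed (orange) mice, the open circle is Slc16a3 in naïve mice as a difference of mean log2 values outside the fit, each grey tick is 1 marker gene in naïve mice, and the dashed line is the median of all genes (−0.64). Slc2a4, Slc16a1 and Slc2a1 lay between the astrocyte markers and the median of all genes, and Slc2a3, Slc16a3 and Slc16a7 lay among the markers of other cell types.

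Shares among chosen transporter genes, from levels per kilobase within a library, do not depend on scaling between libraries. They are not shares of a whole family. The glucose share leaves out Slc2a4, at 0.974 CPM per kb in naïve IP beside 1.47 for Slc2a3. It also leaves out other Slc2 genes. In naïve IP Slc2a13, Slc2a8 and Slc2a10 were at 30.9, 18.9 and 7.57 CPM, beside 10.7 CPM for Slc2a3, all without division by length. Slc2a1 made up 95.3% to 96.1% of the sum of Slc2a1 and Slc2a3 in naïve IP and 95.4% to 96.0% in stress IP. In naïve INPUT it made up 43.5% to 46.9%, and in stress INPUT 44.1% to 52.8%, where 3 of 4 libraries lay above every naïve library and replicate 9 was the lowest. Of the sum of Slc16a1, Slc16a3 and Slc16a7, Slc16a1 made up 97.5% to 98.6% in naïve IP and 97.8% to 98.5% in stress IP. In INPUT it made up 69.8% to 72.8% (naïve) and 68.8% to 74.7% (stress), and most of the remainder was Slc16a7, with a median share of 25.3% in naïve and 24.4% in stress INPUT. Slc16a3, the form described for lactate-exporting cells, had a median share of 0.226% in naïve IP, 0.380% in stress IP, 3.67% in naïve INPUT and 3.44% in stress INPUT.

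**Figure D3:**
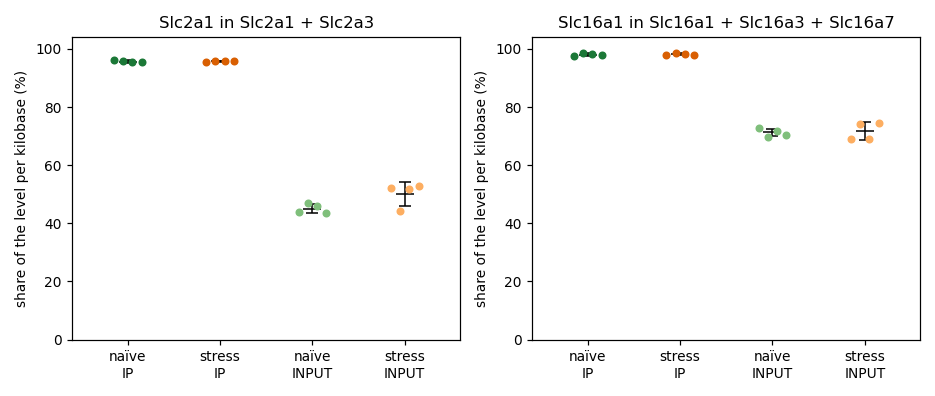
The vertical axes are shares in percent of the level per kilobase, of Slc2a1 in Slc2a1 + Slc2a3 (left) and of Slc16a1 in the 3 monocarboxylate transporter genes (right), with 1 point per library and the mean ± SD (n = 4). All IP libraries lay above 95% for Slc2a1 and above 97% for Slc16a1, and all INPUT libraries lay between 43.5% and 52.8% and between 68.8% and 74.7%.

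The effect of the swim was then compared within each fraction. In IP none of the 6 members tested passed an adjusted p under 0.05 with limma, where 0.44% of 12501 genes did, and none had an unadjusted p under 0.05, with limma-voom as with limma, where 8.27% of all genes did. Slc2a1 had a log2 fold change of 0.03 (95% interval −0.14 to 0.20), from 113 ± 12.6 to 115 ± 6.04 CPM (mean ± SD, n = 4), so that its interval held folds of 0.907 to 1.15. For Slc2a3 the change was −0.00 (−0.26 to 0.26), for Slc16a7 −0.05 (−0.52 to 0.41) and for Bsg −0.00 (−0.14 to 0.13). All of these had overlapping groups. For Slc2a4, at 3.39 ± 1.33 CPM without and 2.41 ± 0.633 CPM after stress, the value was −0.44 (−1.03 to 0.14, limma adjusted p = 0.711, exact permutation p = 0.229), and the interval reaches a fold as low as 0.491.

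In IP, Slc16a1 averaged 56.5 ± 3.21 CPM without and 61.8 ± 2.78 CPM after stress. In 3 of 4 stress libraries it lay above every naïve library, and replicate 4, at 57.7 CPM, lay among them. The log2 fold change was 0.13 (95% interval −0.01 to 0.27, limma p = 0.0644, adjusted p = 0.651, exact permutation p = 0.0571), so the difference did not pass the test. Across the alternatives it lay between 0.09 and 0.16, with adjusted p from 0.491 to 0.952.

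Slc16a3 was the only one of the 7 whose values did not overlap between naïve and stress IP, as was so for 5% of the 12501 genes tested. Its reads numbered 2 to 6 in naïve and 6 to 9 in stress libraries, higher in 4 of 4 in CPM (exact permutation p = 0.029, the smallest possible and not adjusted for the number of genes). The pooled counts, 15 against 27 reads, gave a ratio of 1.89 with a counting interval of 0.972 to 3.83 that spans 1. With no filter on low values limma gave an adjusted p of 0.648. At this depth a difference in Slc16a3 was not established.

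In INPUT none of the 6 members tested passed the adjusted threshold, where 0.0442% of 13577 genes did, and 1 of the 6, Slc2a1, had an unadjusted p under 0.05, as did 5.03% of all genes. No member had groups without overlap, against 2.87% of all genes. The mean of Slc2a1 was 46.9 ± 4.71 CPM without and 62.1 ± 9.86 CPM after stress, a log2 fold change of 0.39 (95% interval 0.16 to 0.63) or 1.31-fold (limma p = 0.00286, adjusted p = 0.455, exact permutation p = 0.0571). In 3 of 4 stress libraries it was above every naïve library, and in replicate 9, at 48.1 CPM, it was below naïve replicate 14. Without replicate 9 the log2 fold change was 0.51 and passed (limma adjusted p = 0.0283), and with weights for each library it was 0.48 and also passed (limma adjusted p = 0.0340). With any other library left out it was 0.32 to 0.46 and did not pass. Replicate 9 and naïve replicate 14 are the INPUT libraries that stood apart over all genes. Among single libraries, only leaving out replicate 9 changed the call, and without replicate 14 alone the gene did not pass (limma adjusted p = 0.171). Without both, Slc2a1 had a log2 fold change of 0.58 (limma adjusted p = 0.000816), in a fit that called 0.382% of all genes.

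The endothelial markers did not move the same way in INPUT. All 11 had a lower mean in stress INPUT, with a median log2 fold change of −0.16, beside −0.0025 over all genes. Of these markers 0 passed the adjusted threshold and 3 had an unadjusted p under 0.05, as did 5.03% of all genes. Their summed level was 149, 136, 105 and 137 CPM in naïve INPUT (replicates 3, 7, 14 and 16) and 119, 88.0, 110 and 125 CPM in stress INPUT (replicates 1, 9, 10 and 12). The ratio of Slc2a1 to that sum was 0.291, 0.331, 0.513 and 0.330 in naïve INPUT and 0.553, 0.547, 0.574 and 0.568 in stress INPUT. These ratios did not overlap, whereas the levels of Slc2a1 did. The sum itself averaged 111 CPM after stress, against 132 CPM without, and a lower sum alone raises the ratio of a gene at an unchanged level. How many of all genes would separate by such a ratio was not tested. Replicate 9, with the lowest Slc2a1 of the stress libraries, also had the lowest endothelial sum, and naïve replicate 14, with the highest Slc2a1 of the naïve libraries, had the lowest sum among those. The part of endothelial content in the level of Slc2a1 was not tested.

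**Figure D4:**
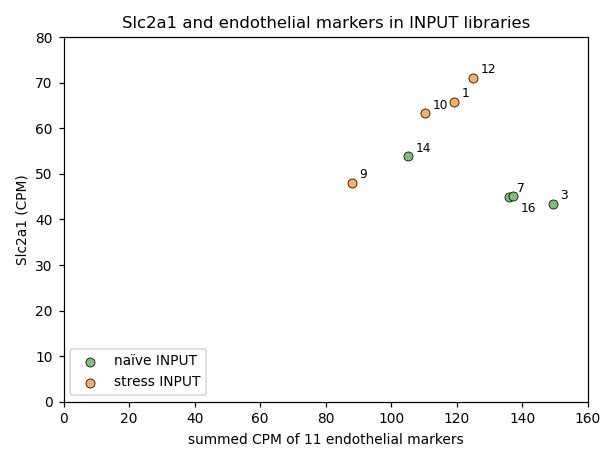
The horizontal axis is the summed CPM of 11 endothelial markers and the vertical axis is Slc2a1 in CPM, for the 4 naïve and 4 stress INPUT libraries, numbered by replicate. Naïve replicates 3, 7 and 16 had 136 to 149 CPM of markers with 43.4 to 45.3 CPM of Slc2a1, and stress replicates 1, 10 and 12 had 110 to 125 CPM of markers with 63.3 to 71.1 CPM. Naïve replicate 14 (105 CPM of markers, 53.9 CPM of Slc2a1) and stress replicate 9 (88.0 and 48.1 CPM) lay between them in Slc2a1.

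The other members differed by less in INPUT. Slc2a3, at 118 ± 10.6 CPM without and 126 ± 4.00 CPM after stress, had a log2 fold change of 0.10 (95% interval −0.04 to 0.24). Slc16a1, at 29.7 ± 2.07 and 29.2 ± 4.10 CPM, had −0.03 (−0.25 to 0.18). For Slc16a7, at 28.3 ± 2.71 and 26.6 ± 1.28 CPM, it was −0.09 (−0.26 to 0.09), and for Bsg, at 242 ± 17.0 and 250 ± 7.90 CPM, 0.05 (−0.07 to 0.17). The intervals of these 4 genes lay between folds of 0.833 and 1.18. For Slc16a3, at 1.70 ± 0.431 and 1.77 ± 0.636 CPM, the interval of −0.58 to 0.63 was wide. Slc2a4 was below the level needed for the fit, and its means of 0.557 ± 0.364 and 0.723 ± 0.361 CPM did not differ beyond their spread (exact permutation p = 0.543).

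**Figure D5:**
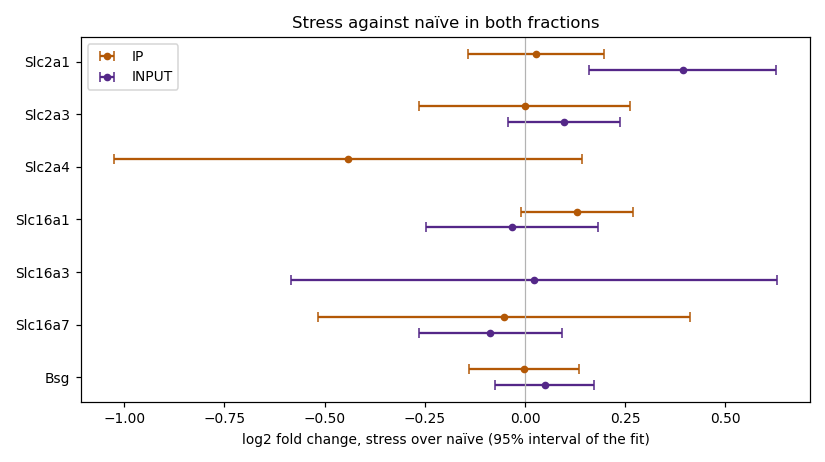
The horizontal axis is the log2 fold change of stress over naïve, with points for the fitted value and bars for its 95% interval, in IP (brown) and INPUT (purple), for the members that entered each fit. Slc2a1 in INPUT was the only value whose interval lay to one side of 0 (0.16 to 0.63), and it did not pass after adjustment over all genes.

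Whether the effect of stress differed between fractions was tested as 1 term over all 16 libraries. None of the 6 members tested passed, beside 0.0225% of 13341 genes. For Slc2a1 the effect in IP minus that in INPUT was −0.37 on the log2 scale (95% interval −0.67 to −0.06), and limma gave an adjusted p of 0.982 and an unadjusted p of 0.0217, a level that 4.71% of all genes passed. With the 4 libraries that stood apart left out it was −0.50 and passed (limma adjusted p = 0.0189), in a fit that called 0.277% of all genes. Its IP values were alike in both conditions while its INPUT values were higher in 3 of 4 stress libraries, and the same difference separates its IP to INPUT ratios of 1.27 in naïve and 0.90 in stressed mice. For Slc2a4 the term was −0.82 (−2.0 to 0.37), for Slc16a1 0.16 (−0.09 to 0.42), for Slc2a3 −0.10 (−0.38 to 0.18), for Slc16a7 0.03 (−0.42 to 0.49) and for Bsg −0.05 (−0.23 to 0.13).

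The wider pathway was taken from 6 lists with 44 genes, all present in the tables, of which 32 had enough signal to test between fractions. In naïve mice 10 of the 32 were higher in IP, 15 were lower and the median log2 ratio was −0.19. Over all genes 23.7% were higher and 64% lower, with a median of −0.64. Among the other Slc2 genes, Slc2a10 (GLUT10) was at 3.10 and Slc2a12 (GLUT12) at 1.28, while Slc2a5, the fructose transporter that marks microglia in brain, was at −3.76 and Slc2a13, the neuronal proton and myo-inositol transporter, at −3.05. All 4 passed the limma test. Slc2a10 thus had a ratio above that of Slc2a4, averaging 7.57 CPM in the IP and 0.826 CPM in the INPUT libraries of naïve mice. Among the other Slc16 genes, Slc16a14 was at −2.75 and Slc16a6 at −2.0, both passing.

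Of the membrane partners, embigin (Emb, 6.91 against 36.1 CPM, log2 ratio −2.38) and neuroplastin (Nptn, −2.08) were lower in IP by far more than Bsg. Hcar1, Ldha and Hk1, which did not differ beyond their spread when scaled by library totals, are named for their role. The median ratio of all genes was −0.64 in naïve mice. The ratios of Hcar1, Ldha, Hk1 and G6pc3 lay above that median, and that of Mpc2 lay close to it. Ratios of these pathway genes under other scalings are not given here. The lactate receptor Hcar1 was low in both fractions, at 1.27 and 1.31 CPM, with a ratio of −0.10 that did not pass (limma adjusted p = 0.824). Of the mitochondrial pyruvate carrier, Mpc1 was at 0.39 and Mpc2 at −0.65, both called. Ldhb, the lactate dehydrogenase subunit favoured in cells that use lactate, had a ratio of 1.13 (855 against 391 CPM), whereas Ldha, at 150 and 147 CPM, had a ratio of 0.01 (limma adjusted p = 0.926). For the hexokinases, which trap glucose by phosphorylation, Hk2 was at 0.83 and Hk1, the brain form, at 0.02 (limma adjusted p = 0.796), and G6pc3, a glucose-6-phosphatase, was at −0.28. Of the genes that govern traffic of glucose transporters, Rab10 was at 0.77 and Aspscr1 at 0.21, and Tbc1d1 was at −1.39 and Sort1 at −1.16, all passing.

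In the limma fit used for the comparisons, none of these pathway genes passed the test for stress in either fraction. In IP it was 0 of 30 tested, with 1 (Txnip) at an unadjusted p under 0.05. In INPUT it was 0 of 32, with 2 (Txnip and Slc16a10). Both are named here from their values. Txnip, whose protein takes GLUT1 from the cell surface into the cell, was at 8.42, 8.82, 28.0 and 7.86 CPM in naïve IP (replicates 2, 8, 11 and 13) and at 36.0, 31.5, 44.6 and 20.49 CPM in stress IP (replicates 4, 5, 6 and 15). Replicate 11 was the 1 naïve library inside the stress range. The log2 fold change of Txnip in IP was 1.49 and did not pass (limma adjusted p = 0.154), whereas without replicate 11 it was 1.92 and passed (limma adjusted p = 0.000702). With no library left out, it passed with weights for each library (1.85, limma adjusted p = 0.00636). It also passed with all 16 libraries in 1 model (1.49, limma adjusted p = 0.0183) and without replicates 11 and 15 (2.13, limma adjusted p = 7.57e-07). Under the other alternatives it did not pass. In INPUT Txnip averaged 18.6 ± 3.77 CPM without and 25.5 ± 3.70 CPM after stress, a log2 fold change of 0.46 (limma adjusted p = 0.526), which was 0.65 and passed without replicates 9 and 14 (limma adjusted p = 0.00979). For Slc16a10, an aromatic amino acid transporter, the INPUT means were 3.22 ± 0.580 and 4.54 ± 0.874 CPM (log2 fold change 0.48, limma adjusted p = 0.857).

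The genes whose pattern over the 16 libraries was most like each member were ranked by Pearson correlation of log2(CPM + 0.1) among 13341 genes, as a description, since the libraries share the large split between fractions. Slc2a1 was most like Lipe (r = 0.981), Tsku (0.980) and Mfsd2a (0.968), and Slc16a1 most like Agtrap (0.988), Cyp51 (0.987) and Hsd3b7 (0.987). Slc2a3 was most like Rprml, Ptk2b and Tiam1 (each 0.998), Slc16a7 most like Il17d (0.997), and Bsg most like Osbpl2 (0.974). With the group means removed, so that only the spread among the 4 libraries of a group remained, Lrg1 stood first both for Slc2a1 (0.865) and for Slc2a4 (0.843). Among naïve IP libraries replicate 11 was the highest for Slc2a1, Slc2a3 and Slc2a4, and among naïve INPUT libraries replicate 14 was the highest for Slc2a1, Slc2a3, Slc2a4 and Bsg.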

How the data were processed

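Per the labels and the study's methods, RNA of the cleared lysate and of the anti-HA immunoprecipitate was made into TruSeq libraries. Reads were aligned by the authors with STAR (genome mm10), and fragments with a unique position were counted over RefSeq genes by HTSeq. The authors deposited 1 table per library with log2 CPM of 24060 genes. The submitters' processing notes also name limma. The deposited log2 values contain a small constant added before the log, were scaled by the library's own total only, and were not corrected for gene length. The constant was removed to obtain CPM, and the values up to 1000 reads came out whole within 0.1 read.

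The comparisons used limma 3.58.1 (lmFit and eBayes with a variance trend, R 4.3.3) on log2(CPM + 0.1), kept genes averaging above 1 CPM in the libraries of the comparison, and called a gene at a Benjamini-Hochberg adjusted p under 0.05 over all genes tested. The fit was tested on simulated data for stress against naïve in IP. It recovered 198 of 198 genes changed 2-fold among 12496 tested, with 10 false calls. The simulation held no library that stands apart and gave all genes the same small dispersion. In the real data, Slc2a4 varied by 39.4% (SD over mean) in naïve IP. Txnip, with a log2 fold change of 1.49 in IP, did not pass in the fit used for the comparisons. The recovery therefore does not give the power reached with these data. Members also had the two-sided exact permutation test over 70 labelings. Pooled reads of low genes were compared by an exact binomial interval. P-values measure the spread between 4 libraries of a group, each from 1 mouse. Levels per kilobase used the union of GENCODE M21 exons, and promoters came from RefSeq. Python 3.11.15, pandas 2.3.3, SciPy 1.17.1 and matplotlib 3.10.9 were used.

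The members, gene lists and tests were chosen with earlier results of these data known. Pathway genes were named by the 2 highest and 2 lowest log2 ratios of IP to INPUT in naïve mice among those past the threshold in each list, and the 3 genes most like each member by correlation. Hcar1, Ldha, Hk1, Txnip, Slc16a10 and Gjb6 were named outside that rule. A gene that the rule gave entered the counts and is not reported here by itself. The alternatives tried were a pseudocount of 1 or 0.01, a filter at 5 CPM or none, median-ratio size factors, quantile normalization, limma-voom run on whole reads, no variance trend, array weights, all 16 libraries in 1 model, Xist as a covariate, longest transcripts as lengths and each library left out. Leaving out together the library of each group that stands apart was added after seeing the data. Protein sequences and the promoters of 4 members were not used here.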

Additional observations from a re-analysis of the deposited data

Results flagged for a closer look

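Of 28 sets of 4 libraries examined for a library that stands apart (7 genes in 4 groups), 1 met the criterion, where chance gives about 1.4. It was Slc16a1 in stress IP replicate 4, at 57.7 CPM whereas the other 3 libraries of that group lay at 62.8 to 63.7 CPM. This library lay within the range of the naïve IP libraries (53.0 to 60.6 CPM). Without it the log2 fold change of Slc16a1 between stress and naïve IP was 0.16 in place of 0.13 and did not pass (limma adjusted p = 0.647).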

How the results depend on the processing

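The higher level of Slc2a1, Slc2a4 and Slc16a1 in IP and the lower level of Slc2a3 and Slc16a7 kept direction and call under the alternatives run in both conditions. Bsg turned to 0.29 (naïve) and 0.23 (stress) with median-ratio size factors and to 0.069 and 0.017 with quantile normalization, which also left 2 members called lower in stressed mice. Slc16a3 in stressed mice was −0.57 and not called with quantile normalization. In naïve mice it entered 5 alternatives and was called in each. With no filter on low values its limma adjusted p was 8.33e-05. The other 4 each left out 1 naïve IP library, so that its INPUT level lifted it past the filter, and their calls add no support.

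No member passed for stress in IP under any alternative. Signs that turned there were small values: Slc2a3 at 0.0037 with quantile normalization and 0.031 with array weights, and Bsg at 0.034 with array weights. With libraries left out in turn, values ran from −0.019 to 0.10 for Slc2a1, −0.071 to 0.098 for Slc2a3, −0.18 to 0.094 for Slc16a7 and −0.052 to 0.040 for Bsg. In INPUT Slc16a3 was −0.034 with limma-voom and −0.026 with array weights. There, with libraries left out, values ran from −0.095 to 0.060 for Slc16a1, −0.15 to 0.23 for Slc16a3, −0.0017 to 0.078 for Bsg and 0.32 to 0.51 for Slc2a1. The number of members called in INPUT was 1 (Slc2a1) with array weights and 0 to 1 with libraries left out, the 1 being without stress replicate 9. The difference of the 2 stress effects ran from −0.17 to 0.00097 for Slc2a3 and −0.089 to 0.18 for Slc16a7. Without the libraries that stand apart (replicates 9, 11, 14 and 15), an alternative added after seeing the data, 1 member (Slc2a1) was called in INPUT and 1 (Slc2a1) in the difference of the 2 stress effects, stress values in IP turned to 0.10 for Slc2a3 and 0.028 for Bsg, and the difference turned to −0.058 for Slc16a7. The cause of these changes was not tested.

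With longest transcripts as lengths, the mean share of Slc2a1 was 95.4% in stress IP and 43.3% in naïve INPUT, and that of Slc16a1 was 69.3% in naïve INPUT. No paired analysis was possible because the labels do not say which IP and INPUT library came from the same mouse. Depth limits Slc16a3 in IP (2 to 9 reads a library) and Slc2a4 in INPUT (4 to 23 reads), and counting intervals cover counting error only, since reads after PCR are not independent molecules.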
